A study of Homo sapiens with 2 samples.

Results

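A group of cells rich in C1Q transcripts was found among the nonadherent cells harvested on day 5 of the endothelial-to-hematopoietic transition (EHT) culture. It was defined as the cells with at least 10 unique molecular identifiers (UMIs, each counting 1 captured mRNA molecule) of C1QA, C1QB and C1QC in sum, here called C1Q cells. There were 645 of them among 7550 kept cells, or 8.54% (exact Clopper-Pearson 95% interval 7.92 to 9.20). They were split at 10 UMIs of SPP1 into 135 SPP1-high and 510 SPP1-low C1Q cells. The cells were thus chosen by the measured counts of these 4 genes, and the levels of C1QA, C1QB, C1QC and SPP1 are given as a description.

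The study asked how the Notch ligand DLL4 and the adhesion molecule VCAM1 shape blood cell formation from human induced pluripotent stem cells. CD34+ cells made from the line IPS11, reprogrammed from human fibroblasts with episomal vectors, were grown for 5 days in EHT medium on plates that were uncoated or coated with VCAM1, DLL4 or DLL4+VCAM1. Nonadherent cells of 3 wells per coating were pooled, each pool was stained with its own hashtag antibody, and the 4 pools were mixed at equal cell numbers into 1 capture of droplet-based single-cell RNA sequencing. The map from hashtags to coatings is not given in the sources used here, so the hashtags, numbered 0252, 0253, 0254 and 0255, stand side by side with no coating named. There was 1 line, 1 pool per hashtag and no replicate, and the groups of cells were chosen from the same counts, so differences are described with no p-value. All intervals cover counting error only. The C1Q cells held 2637685, 2713915, 2533164 and 1747741 gene UMIs in the 4 hashtags, with a median of 13496 per cell against 18668 in the 6905 other kept cells.

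C1q is the recognition part of the classical complement pathway, and it is assembled from chains encoded by C1QA, C1QB and C1QC. Unlike most complement proteins it is made chiefly by macrophages and related cells rather than by hepatocytes, and it tags immune complexes and dying cells for uptake. SPP1 encodes osteopontin, a secreted matrix protein that macrophages make in tissue repair and bone. In the embryo, macrophages are among the first blood cells to appear, and they engulf debris and extruded nuclei.

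In the hg19 annotation the C1q genes lie side by side on the forward strand of chromosome 1, with C1QA at 22961570 to 22966171, C1QC at 22969507 to 22974603 and C1QB at 22979255 to 22988130. SPP1 lies on the forward strand of chromosome 4, at 88896819 to 88904684. The promoters of the genes that define the cells are given here, from 250 bases before to 50 bases after the transcription start, as RefSeq gives them on GRCh38.p14, written from 5′ to 3′ on the forward strand. Promoters were found for 3 of the 4 symbols, and C1QC had no entry. Capitals mark GGAAGT, a core that ETS factors such as the macrophage regulator PU.1 can read, and TGCTGA, one arm of the recognition element of MAF proteins, each on either strand.
C1QA, chr1:22636378-22636677: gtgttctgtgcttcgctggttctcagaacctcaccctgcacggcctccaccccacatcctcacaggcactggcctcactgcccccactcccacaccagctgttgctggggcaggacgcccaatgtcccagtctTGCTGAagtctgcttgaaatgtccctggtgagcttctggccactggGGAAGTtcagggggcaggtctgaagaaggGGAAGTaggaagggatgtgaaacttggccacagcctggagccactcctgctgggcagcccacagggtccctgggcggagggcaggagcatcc
C1QB, chr1:22652986-22653285: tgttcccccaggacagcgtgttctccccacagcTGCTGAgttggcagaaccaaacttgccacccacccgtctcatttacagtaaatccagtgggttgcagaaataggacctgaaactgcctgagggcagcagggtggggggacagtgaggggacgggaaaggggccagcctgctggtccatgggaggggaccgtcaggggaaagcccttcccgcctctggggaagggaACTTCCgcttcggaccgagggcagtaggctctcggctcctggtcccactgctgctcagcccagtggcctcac
SPP1, chr4:87975464-87975763: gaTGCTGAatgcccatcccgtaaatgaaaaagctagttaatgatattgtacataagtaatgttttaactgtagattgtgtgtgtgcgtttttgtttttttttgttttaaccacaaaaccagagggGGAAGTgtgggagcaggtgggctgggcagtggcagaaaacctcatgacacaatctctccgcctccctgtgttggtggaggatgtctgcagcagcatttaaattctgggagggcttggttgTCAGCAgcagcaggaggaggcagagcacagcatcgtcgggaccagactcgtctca
The C1QA promoter held 2 copies of GGAAGT and 1 of TGCTGA, the C1QB promoter 1 of each, and the SPP1 promoter 1 copy of GGAAGT and 2 of TGCTGA. A second C1QA entry, at 22636213 to 22636512, held 0 of either. Among 34796 RefSeq promoters of this length, 22.8% held GGAAGT, 17.3% held TGCTGA and 3.95% held both. The motifs, which do not overlap each other here, were chosen after the sequences and the expression of SPI1 and MAF had been seen, and a match says nothing about binding.

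C1Q UMIs were absent from most cells and fell off without a gap in the rest. Of the 7550 kept cells, 5841 (77.4%) had 0 C1Q UMIs, 617 had 1 and 112 had 2. A further 226 cells had 3 to 6 and 109 had 7 to 9. Among the C1Q cells, 106 had 10 to 12 UMIs, 152 had 13 to 19, 277 had 20 to 49, 91 had 50 to 99 and 19 had 100 or more. The median C1Q cell held 23 UMIs and the highest held 271. There was no gap at the threshold, since 34 cells had 8 C1Q UMIs, 31 had 9, 42 had 10 and 34 had 11.

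**Figure D1:**
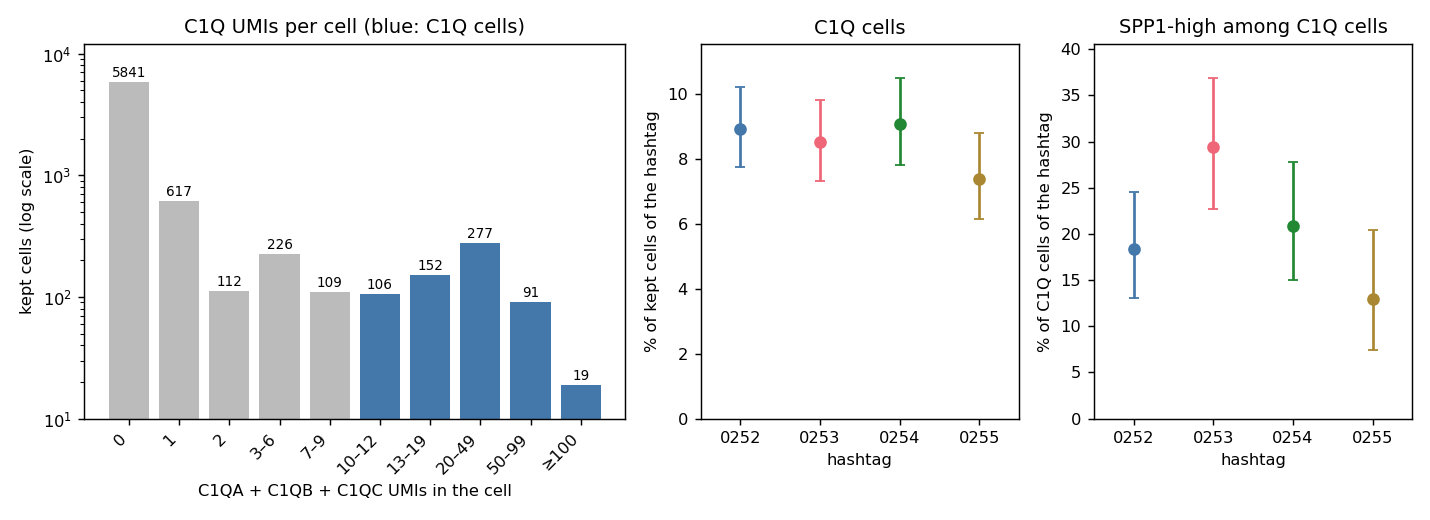
C1Q UMIs per kept cell (left, log axis, C1Q cells in blue), the share of each hashtag's kept cells that were C1Q cells (middle) and the share of C1Q cells that were SPP1-high (right), with exact 95% intervals. The peak at 0 UMIs holds 5841 cells and the C1Q cells run from 10 to 271 UMIs, the 4 C1Q shares lie between 7.38% and 9.10%, and the SPP1-high share is highest in hashtag 0253.

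Low C1Q counts were found in cells of other types too. At least 1 C1Q UMI was present in 15.4% of the kept cells that were not C1Q cells. With no limit on C1Q, it was present in 14.9% of 1027 cells with at least 50 UMIs of the neutrophil granule genes MPO and PRTN3, 9.90% of 1414 cells with at least 5 CD34 UMIs and 9.29% of 226 cells with at least 50 hemoglobin UMIs. At least 3 C1Q UMIs were held by 3.02% (exact 95% interval 2.06 to 4.26), 0.707% (0.34 to 1.30) and 1.77% (0.48 to 4.47) of these groups, and at least 10 by 15, 4 and 2 cells (1.46%, 0.283% and 0.885%). Their median depths were 19271, 22544 and 20022 UMIs, against 13496 in C1Q cells.

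The chains were seen together. All 3 were present in 580 of the 645 C1Q cells (89.9%), 60 cells had a pair of chains and 5 had a single one. Over all C1Q cells there were 5739 UMIs of C1QA, 5752 of C1QB and 9024 of C1QC. In hashtags 0252, 0253, 0254 and 0255, the C1Q cells had C1QC levels of 1071, 880, 900 and 875 UMIs per 1000000 gene UMIs (CPM). C1QA stood at 670, 581, 574 and 539 CPM and C1QB at 640, 539, 591 and 632 CPM in the same order. C1QC was the highest chain in every hashtag, and C1QA and C1QB changed places between hashtags. A 3′ library counts 1 end per transcript, so these levels carry no length correction. C1Q cells, 8.54% of the kept cells, held 88.0% of all kept C1QA UMIs, 90.8% of C1QB and 87.4% of C1QC.

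C1Q cells were found under every hashtag, at 7.38% to 9.10% of its kept cells. They were 191 of 2136 kept cells of hashtag 0252 (8.94%, 7.77 to 10.2), 170 of 1996 of hashtag 0253 (8.52%, 7.33 to 9.83), 168 of 1847 of hashtag 0254 (9.10%, 7.82 to 10.5) and 116 of 1571 of hashtag 0255 (7.38%, 6.14 to 8.79). The intervals overlapped. Hashtag 0255 had the lowest share here and under every alternative definition of a C1Q cell that was tried, whereas the highest was hashtag 0254 here and with no limit on UMIs or genes, and hashtag 0252 under the others. The ratio of the highest to the lowest share, 1.23 here, was 1.17 with 5 UMIs as the threshold, 1.46 with 20 UMIs and 3.73 with a mitochondrial limit of 10%, which left 50 C1Q cells. The hashtags in this ratio were picked by their values, so it cannot fall below 1 and is given as a description.

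The C1Q cells were next compared with the 6905 other kept cells. A level is the CPM of a gene over the summed cells of a group, and a difference is the log2 ratio of levels with 1 CPM added to each. A gene is called higher or lower where this ratio was at least 1 or at most -1 within each of the 4 hashtags, among genes with at least 10 CPM in either group. Without C1QA, C1QB and C1QC, 501 of 8446 genes (5.93%) were higher in C1Q cells and 290 (3.43%) were lower, with a median log2 ratio of -0.11 over all genes. The counts of every gene list are to be read against these shares. A gene under 10 CPM in one group passed the filter only through the group where it was high, which favors a call. Among the 7118 genes at 10 CPM or more in both groups, 244 (3.43%) were higher and 131 (1.84%) were lower. List counts over such genes are given for many of the lists.

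Genes of the macrophage surface were higher in part. Of 17 macrophage surface and identity genes past the filter, 10 were higher and 0 lower, with a median log2 ratio of 2.23, and of the 10 at 10 CPM or more in both groups 6 were higher. CD14, the co-receptor for lipopolysaccharide, was at 99.3, 145, 69.9 and 93.3 CPM in the C1Q cells of hashtags 0252, 0253, 0254 and 0255. In the other cells of the same hashtags it was at 1.69, 1.01, 1.09 and 0.859 CPM, and the pooled log2 ratio of 5.57 was the largest of all genes called. CSF1R, the receptor for the macrophage growth factors CSF1 and IL34, was at 349, 268, 264 and 207 CPM against 58.1, 59.0, 38.4 and 35.3 CPM (log2 ratio 2.48). The signaling adaptor TYROBP was at 1030 against 244 CPM (2.08) and the lysosomal membrane protein CD68 at 121 against 18.9 CPM (2.61). MS4A7 (124 against 6.67 CPM, 4.03), the organic anion carrier SLCO2B1 (35.0 against 0.41 CPM, 4.68), the mannose receptor MRC1 (14.6 against 0.29 CPM, 3.59) and MS4A6A (log2 ratio 2.79) were higher as well. Such ratios over low levels depend on the CPM added, and with 5 CPM in place of 1 that of SLCO2B1 was 2.89 and that of CD14 4.13. AIF1, the most abundant gene of the list at 1201 CPM in C1Q cells, was at 709 CPM in the others and did not reach 2-fold.

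CD14 was detected in 30.5% of C1Q cells, since 448 of the 645 held 0 CD14 UMIs, and the highest held 49. At so low a level, 0 UMIs do not show that a cell lacked the transcript. TYROBP, a more abundant gene, was seen in all 645 C1Q cells, with a median of 14 UMIs, and CSF1R in 93.5% of them against 41.5% of the other cells. Of all kept CD14 UMIs, 86.3% were in C1Q cells.

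Of the transcription factors that direct macrophage identity, some were higher. Of 16 past the filter, 6 were higher and 0 lower, and of the 10 at 10 CPM or more in both groups 2 were higher. MAF, a basic leucine zipper factor of macrophages, was at 76.2 CPM in C1Q cells against 5.42 CPM in the others (log2 ratio 3.59). SPI1, which encodes PU.1, was widespread, at 639 CPM in C1Q cells and 302 CPM in the others, with a ratio that was 0.87 in hashtag 0253 and above 1 in the other hashtags. CEBPD (1.61), IRF8 (1.14), TFEB (1.90) and BHLHE41 (2.21) were higher as well.

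Genes for uptake and display of antigen were higher. Of 11 HLA class II genes past the filter 8 were at 10 CPM or more in both groups, and these 8 were higher, as were the 3 that passed through the C1Q cells alone. HLA-DRA was at 1637, 1186, 1731 and 1799 CPM in C1Q cells and at 98.1, 88.6, 108 and 159 CPM in the other cells, and 82.5% of C1Q cells held at least 10 HLA-DRA UMIs. CD74, the invariant chain, was at 2672 against 320 CPM (3.06), and CIITA, the master regulator of these genes, at 56.5 against 7.83 CPM (2.70). Of 17 Fc receptor and innate sensing genes 15 were higher, but 11 of the 17 passed the filter through the C1Q cells alone, and of the other 6 genes 5 were higher. They included the IgG receptors FCGR3A (27.7 against 0.71 CPM, 4.07), FCGR2B (4.22), FCGR1A (2.79) and FCGR2A (2.38), the endosomal RNA sensor TLR7 (3.13), the TLR4 partner LY96 (3.48) and the beta-glucan receptor CLEC7A (2.89). With 5 CPM added the ratios of FCGR3A and FCGR2B were 2.52 and 2.76. MYD88 and NLRP3 were the members that did not pass. HLA-DRB1, FCGR2B and FCGR3A have near-identical copies in the genome, and how reads were split between the copies is uncertain.

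Lysosomal and lipid genes were higher in part. Of 22 lysosomal genes 9 were higher and 0 lower, as were 8 of the 19 at 10 CPM or more in both groups, among them the cathepsins CTSB (2.69), CTSL (2.49), CTSS (2.46), CTSH (2.22), CTSC (1.31) and CTSZ (1.30), while the general lysosome markers LAMP1 (-0.40) and CD63 (-0.06) were not. Of 16 lipid handling and efferocytosis genes 9 were higher, and of the 11 at 10 CPM or more in both groups 6. TREM2, a lipid receptor of phagocytes, was at 155, 241, 130 and 126 CPM in C1Q cells and between 11.3 and 34.3 CPM in the others, where hashtag 0253 was also the highest (log2 ratio 3.13). APOE was at 371, 647, 317 and 275 CPM against 33.6, 47.1, 56.4 and 52.7 CPM (3.13), and the scavenger receptor CD36 was at 132 against 11.1 CPM (3.47). Both AXL, a receptor for dying cells (2.84), and its bridging ligand GAS6 (2.49) were higher. Leaving out mitochondrial and ribosomal protein genes, FTL, the light chain of the iron store ferritin, was the most abundant gene of the C1Q cells at 16975 CPM, against 6386 CPM in the others (1.41), and the heme-degrading enzyme HMOX1 was at 129 against 7.99 CPM (3.86).

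Other complement genes were higher in part. Of 5 other genes of the classical complement list past the filter 1 was called. However, 5 were higher in all 4 hashtags at any size, against 27.7% of all genes, with a median log2 ratio of 0.78. C3, the central component, was at 354, 123, 131 and 81.2 CPM in C1Q cells and 39.2, 30.8, 15.5 and 15.1 CPM in the other cells (2.74), and was the only other gene of the classical complement list to be called. C1R and C1S, the proteases that join C1q in the active complex, were at 0.42 and 0.31 CPM in C1Q cells, C4A and C4B were at 0 UMIs, which allows up to 0.31 CPM (3 counts of the group's total), and C2 was at 3.63 CPM. Of 9 complement receptors and regulators past the filter, VSIG4, a macrophage receptor for C3 fragments (24.7 against 2.31 CPM, 2.96), the integrin chain ITGB2 (2.23) and the C3a receptor C3AR1 (2.13) were higher. Of the 5 at 10 CPM or more in both groups 1 was higher. The other 2 calls, VSIG4 among them, were of genes that passed through the C1Q cells alone.

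Markers of tissue-resident macrophages were mixed. Of the list of 14, 5 passed the filter, 3 of them through the C1Q cells alone, so no share is read from them. CX3CR1, the fractalkine receptor, was at 194 against 34.3 CPM (2.47). P2RY13 was at 18.7 against 1.76 CPM (2.84), GPR34 at 67.0 against 9.58 CPM (2.68), and the ratio of OLFML3 was 2.50. LYVE1, CD5L, MARCO, P2RY12 and SALL1 were under 0.30 CPM in C1Q cells, SPIC was at 0 UMIs, and FOLR2, TIMD4 and TMEM119 were at 3.74, 1.56 and 0.83 CPM. The scavenger receptor MSR1 was also at 0 UMIs. CD163, a hemoglobin scavenger receptor of mature macrophages, was at 5.50 CPM and did not pass the filter.

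**Figure D2:**
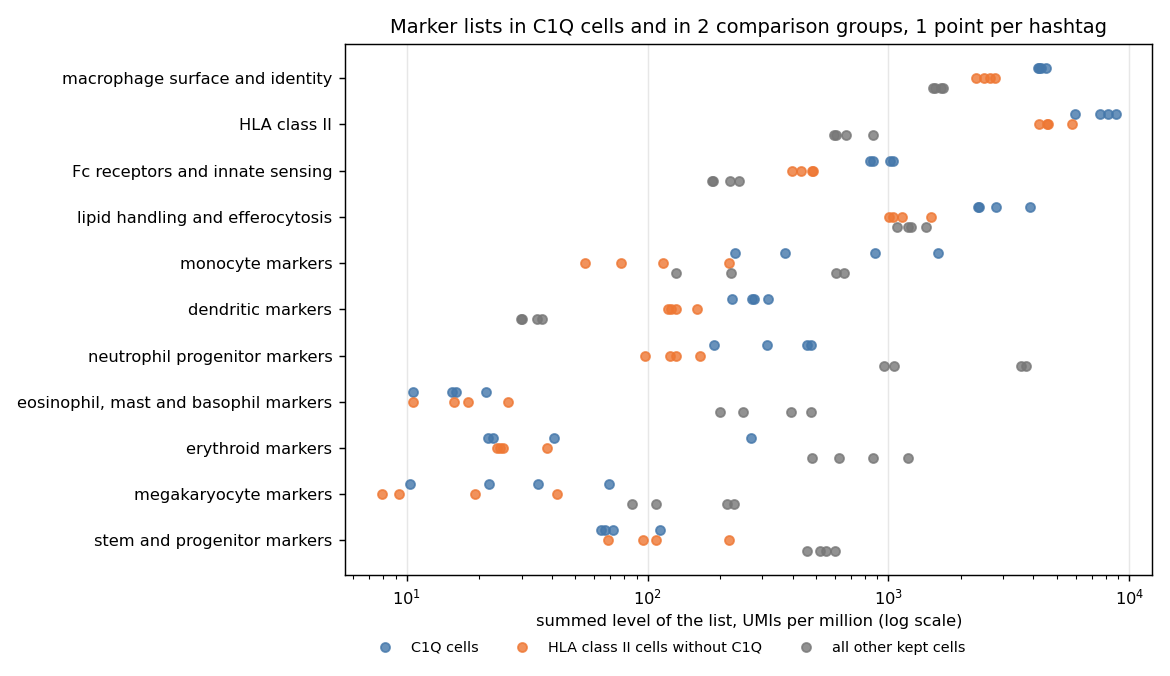
Summed levels of 11 marker lists in C1Q cells, HLA class II cells without C1Q and all other kept cells, with 1 point per hashtag on a log axis in CPM. The C1Q points lie above both comparison groups for macrophage, HLA class II, Fc receptor, lipid and dendritic lists and between them for neutrophil progenitor genes, and for monocyte genes they overlap those of all other kept cells.

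Signals and effectors were higher in part. Of 16 interferon response genes 5 were higher, among them the antiviral MX1 (125 against 18.6 CPM, 2.69) and IFI27 (27.4 against 3.01 CPM, 2.82). Of the 13 at 10 CPM or more in both groups 4 were higher. The chemokines CCL3 (75.4 against 10.4 CPM, 2.74) and CCL4 (2.32) were higher with IL1RN and IL18, while CXCL3 was lower (3.01 against 11.4 CPM, -1.63), out of 8 cytokine genes past the filter. Of the 5 at 10 CPM or more in both groups 4 were higher, and CXCL3 passed through the other cells alone. The matrix proteases MMP9 (2.66) and MMP14 (1.80) and the inhibitor TIMP2 (1.31) were higher out of 12. Of the 8 at 10 CPM or more in both groups 1 was higher, and the other 2 calls were of genes that passed through the C1Q cells alone. ACP5, the tartrate-resistant acid phosphatase of osteoclasts and macrophages, was at 48.6 against 4.08 CPM (3.29). Of 5 receptors of osteopontin past the filter 0 were called, and CD44 was at 47.5 against 97.9 CPM (-1.03). Of 4 Notch target genes HES1 was lower, at 4.78 against 29.7 CPM (-2.41), and passed the filter through the other cells alone. Of the 2 at 10 CPM or more in both groups 0 were called. Of 12 iron and heme genes HMOX1, FTL and the metal carrier SLC11A1 (2.36) were higher and BLVRA was lower (-1.29). Of the 8 at 10 CPM or more in both groups 1 was higher, FTL, and 0 were lower. HMOX1 and SLC11A1 passed the filter through the C1Q cells alone and BLVRA through the other cells alone.

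Markers of the other cell types in the culture were lower in C1Q cells, with exceptions. Of 5 stem and progenitor markers past the filter 3 were at 10 CPM or more in both groups, and these were lower, with CD34 at 10.8 against 124 CPM (-3.41) and GATA2 at 13.6 against 130 CPM (-3.16). The eosinophil, mast cell and basophil markers past the filter were under 10 CPM in C1Q cells and passed through the other cells alone, with CLC at 4.05 against 165 CPM (-5.04), EPX at 5.19 against 84.1 CPM (-3.78) and HDC at 3.74 against 55.8 CPM (-3.58). Of 6 erythroid genes 4 were lower, 3 of which passed through the other cells alone, with the embryonic globin gene HBZ at 2.49 against 115 CPM (-5.05), and HBG2 at 36.1 against 390 CPM. The ratio of HBG2 was -2.04 in hashtag 0253 and between -4.77 and -5.67 in the others, with a pooled value of -3.39 that was -5.25 without hashtag 0253, and the summed erythroid list was at 22.7, 270, 41.1 and 21.7 CPM in the C1Q cells of the 4 hashtags. Few cells carried it, since 4 of 645 C1Q cells held at least 10 hemoglobin UMIs. HBG1 and HBG2 are near-identical copies. In the megakaryocyte list ITGA2B was lower (13.9 against 80.3 CPM, -2.45), and in the endothelial list ESAM (4.36 against 25.1 CPM, -2.28), which passed the filter through the other cells alone. Of 5 stromal markers 1 was higher, the collagen chain COL1A2 (32.6 against 7.36 CPM, 2.01), which passed the filter through the C1Q cells alone, and 0 were lower. The summed stromal list was at 45.1, 58.2, 40.3 and 192 CPM in the C1Q cells of hashtags 0252, 0253, 0254 and 0255, and at 57.8, 46.2, 113 and 234 CPM in the other cells, so hashtag 0255 was the highest in both. The part of stromal cells in the COL1A2 value was not tested.

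The neutrophil progenitor genes were low but not absent. MPO was at 256, 193, 88.8 and 101 CPM in C1Q cells and 1775, 1741, 546 and 479 CPM in the other cells (-2.85), and PRTN3 was at 168 against 1116 CPM. Their summed list stood at 367 CPM in C1Q cells and 2471 CPM in the others. At least 10 UMIs of MPO and PRTN3 were held by 45 C1Q cells (6.98%) against 24.1% of the other cells. Without these 45 cells 503 genes were higher and 298 lower, 484 and 275 of them shared with the calls above. Of the dendritic list, CD1C (81.4 against 5.75 CPM, 3.61) and the lectin CLEC10A (165 against 14.1 CPM, 3.46) were higher, whereas CLEC9A was at 0.42 CPM, XCR1 was at 0 UMIs and FLT3 was at 0.31 CPM. Monocyte genes, by their summed level, were at 883, 1604, 231 and 372 CPM in the C1Q cells and 606, 653, 223 and 132 CPM in the others. 0 of 5 monocyte markers were called, and S100A9, the most abundant, was at 348 against 179 CPM. The summed monocyte list was at 2046 CPM in cells with at least 50 MPO and PRTN3 UMIs and at most 2 C1Q UMIs. In C1Q cells it was at 822 CPM. S100A9 stood at 899 CPM in those MPO and PRTN3 cells.

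C1Q cells did not stand apart in cell cycle genes by the 2-fold rule. Of 19, 0 were called in either direction, with a median log2 ratio of -0.40, and 13 were lower in all 4 hashtags at any size, against 44.3% of all genes. MKI67 was at 178 CPM in C1Q cells and 160 CPM in the others, and the replication clamp PCNA was at 98.6 against 183 CPM. Among the 10 genes with the largest ratios were also PLA2G7, a secreted phospholipase (36.0 against 0.81 CPM, 4.36, or 2.82 with 5 CPM added), and AGR2, a disulfide isomerase (83.4 against 3.78 CPM, 4.14). C1Q cells were shallower, with a median of 3475 genes detected against 4246, while mitochondrial genes took a median 13.5% of their UMIs. The part of depth in these differences was not tested.

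A closer comparison was made with 306 cells that held at least 10 HLA-DRA UMIs and at most 2 C1Q UMIs, here called HLA class II cells without C1Q. They numbered 74, 63, 78 and 91 in hashtags 0252, 0253, 0254 and 0255. The name stands for at most 2 C1Q UMIs, since 112 of the 306 (36.6%, 31.2 to 42.3) held at least 1. Against them 142 of 8093 genes (1.75%) were higher in C1Q cells and 14 (0.173%) were lower, with a median log2 ratio of -0.05. HLA-DRA chose the comparison cells and was left out of the counts.

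Part of the macrophage genes were higher in C1Q cells than in these cells. Of 17 macrophage surface genes 7 were higher, of 17 Fc receptor and innate sensing genes 7, of 16 lipid genes 6 and of 22 lysosomal genes 5, and 0 members of these lists were lower. Among members at 10 CPM or more in both groups the counts were 3 of 12, 2 of 9, 3 of 12 and 3 of 19, against 0.706% of the 7222 such genes. Of 10 HLA class II genes 1 was higher, HLA-DQA1 (110 against 37.8 CPM, 1.51), and 9 of the 10 were higher in all 4 hashtags at any size, against 18.2% of all genes, with a median of 0.66. The comparison cells were chosen for HLA-DRA, which bears on this list. CD14 was at 3.37 CPM in the comparison cells (log2 ratio 4.58). SLCO2B1 had 337 UMIs in C1Q cells and 0 in the comparison cells, a level at least 62.3-fold higher if 3 counts over the comparison group are taken as its floor. FCGR3A was at 27.7 against 0.75 CPM (4.04) and VSIG4 at 24.7 against 0.75 CPM (3.88). APOE was at 417 against 31.1 CPM (3.70), with all 4 hashtags between 3.33 and 3.92. CTSL, a lysosomal protease, was at 61.9 against 2.25 CPM (4.27), and CMKLR1, the chemerin receptor, was at 34.5 against 1.31 CPM (3.94). With 5 CPM added the ratios of FCGR3A and VSIG4 were 2.51 and 2.37.

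SPI1 (639 against 536 CPM, 0.25), CX3CR1 (194 against 154 CPM, 0.33) and AIF1 (1201 against 1045 CPM, 0.20) were at like levels in both groups. IRF8, which is tied to dendritic cells and monocytes, was at 62.2 against 78.1 CPM (-0.32), with hashtags on both sides of 0. The dendritic list went the other way, at a summed 269 against 134 CPM, with CLEC10A at 165 against 50.8 CPM. Of 3 dendritic markers past the filter 1 was called higher and 0 lower, against 1.75% and 0.173% of all genes, with a median of 1.28. At any size 2 were higher and 1 lower in all 4 hashtags. For CD14 and FCGR3A the ratios were above 3 in every hashtag. Of 19 cell cycle genes 0 passed the 2-fold mark, but 16 were lower in C1Q cells in all 4 hashtags at any size, against 26.1% of all genes, with a median of -0.39. Of 16 interferon response genes 0 were called against these cells, with a median of 0.32. At any size 7 of them were higher and 3 lower in all 4 hashtags, against 18.2% and 26.1% of all genes.

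**Figure D3:**
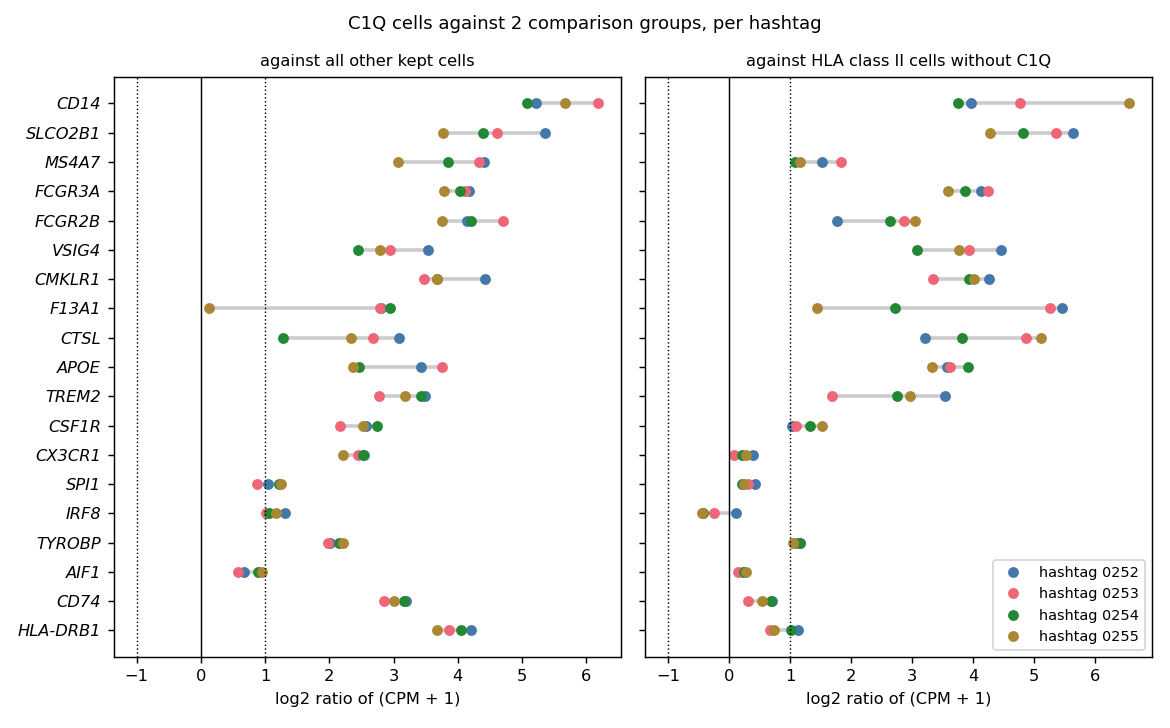
Log2 ratios of 19 genes in C1Q cells against all other kept cells (left) and against HLA class II cells without C1Q (right), 1 point per hashtag and a gray bar from the lowest to the highest, with dotted lines at 1 and -1. CD14, SLCO2B1 and FCGR3A are beyond 3 in every hashtag in both panels, while CX3CR1, SPI1, AIF1, CD74 and HLA-DRB1 move toward 0 in the right panel.

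Genes of the monocyte list were higher in C1Q cells than in the HLA class II cells. S100A8, S100A9, LYZ and FCN1 were higher, 4 of the 5 past the filter and 2 of the 3 at 10 CPM or more in both groups. S100A9 was at 401, 659, 91.2 and 160 CPM in the C1Q cells of the 4 hashtags and 64.5, 35.9, 10.0 and 7.28 CPM in the comparison cells (3.60). FCN1 had 127 UMIs in C1Q cells and 0 in the comparison cells, at least 23.5-fold higher by the same floor. The neutrophil granule genes PRTN3 (168 against 38.2 CPM, 2.11) and AZU1 (2.26) were higher as well, and the 5 granule genes summed to 367 CPM against 128 CPM. The part of granule transcripts from other cells in this was not tested. Without the 45 cells rich in MPO and PRTN3, 132 genes were higher and 11 lower, and 124 and 11 of these were among the calls above. HP, which encodes haptoglobin (39.9 against 0.94 CPM, 4.40), and the interleukin 7 receptor IL7R (41.2 against 1.12 CPM, 4.31) were among the 10 largest ratios, and that of HP was 2.92 with 5 CPM added.

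The 14 genes lower in C1Q cells included SOX2, granzyme genes and CD3E. SOX2 was at 2.60 against 26.0 CPM (-2.91), the granzymes GZMH and GZMB at 0.62 against 10.5 CPM (-2.82) and 2.18 against 11.99 CPM (-2.03), and the T cell receptor complex gene CD3E at 6.33 against 22.7 CPM (-1.69). With 5 CPM added the ratios of GZMH and GZMB were -1.46 and -1.24. SPINK2 was at 7.58 against 47.2 CPM (-2.49), and of 5 stem and progenitor markers it was the 1 called, with a median of -0.18 for the list. The tryptophan-degrading enzyme IDO1 was at 9.48, 16.2, 39.1 and 65.2 CPM in C1Q cells and 84.7, 52.5, 87.3 and 142 CPM in the comparison cells (-1.66). IDO1 was lower in C1Q cells within each hashtag, but the highest C1Q value exceeded the lowest value of the comparison cells.

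Levels within the C1Q cells are given by their C1Q UMIs as a description, since the bins use the counts that chose the cells and the genes were picked with their values known. With 10 to 12, 13 to 19, 20 to 49 and 50 or more C1Q UMIs, CD14 was at 10.8, 22.6, 70.8 and 384 CPM. SLCO2B1 was at 4.79, 14.8, 26.4 and 113 CPM, MS4A7 at 63.4, 74.9, 123 and 255 CPM and CSF1R at 190, 218, 292 and 414 CPM. LTB, which encodes lymphotoxin beta, was at 723, 726, 472 and 278 CPM. MPO was at 233, 239, 125 and 97.7 CPM and S100A9 at 597, 410, 235 and 287 CPM. Median depth was alike over these bins, from 12872 to 13800 UMIs per cell.

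SPP1 split the C1Q cells unevenly. It had 0 UMIs in 378 of them (58.6%) and 1 in 80. At least 1 SPP1 UMI was held by 41.4% of C1Q cells, at a median depth of 13496 UMIs. The share was 19.4% in the 1027 cells with at least 50 MPO and PRTN3 UMIs, at a median depth of 19271. The source of low SPP1 counts was not tested. Few cells lay near the split, with 4 cells at 8 UMIs, 4 at 9, 2 at 10 and 2 at 11. The SPP1-high cells had a median of 72 SPP1 UMIs and a maximum of 982. They were 35 of 191 C1Q cells in hashtag 0252 (18.3%, 13.1 to 24.6), 50 of 170 in hashtag 0253 (29.4%, 22.7 to 36.9), 35 of 168 in hashtag 0254 (20.8%, 14.96 to 27.8) and 15 of 116 in hashtag 0255 (12.9%, 7.42 to 20.4). These intervals count cells of 1 pool each and do not measure the spread between cultures, so no difference between hashtags is read from them. In the other kept cells SPP1 was also highest in hashtag 0253, at 43.0, 369, 64.0 and 100 CPM in the same order.

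Genes for lipid handling were higher in part in SPP1-high C1Q cells than in SPP1-low ones. Of 8201 genes, 73 (0.89%) were higher and 20 (0.244%) lower in SPP1-high cells, with a median log2 ratio of -0.05. Of 18 lipid handling and efferocytosis genes, 6 were higher and 0 lower, and of the 15 at 10 CPM or more in both groups 5 were higher, against 0.51% of the 7250 such genes. TREM2 was at 364, 458, 384 and 393 CPM in the SPP1-high cells of hashtags 0252, 0253, 0254 and 0255 and at 98.4, 149, 66.3 and 85.1 CPM in the SPP1-low cells (2.02). The SPP1-high values of TREM2 varied little between hashtags. Lipoprotein lipase, LPL, was at 63.4 against 7.05 CPM (3.00), and the fatty acid carriers FABP3 and FABP5 were at 102 against 22.1 CPM (2.15) and 2277 against 859 CPM (1.41). APOC1 (646 against 193 CPM, 1.74) and the tetraspanin CD9 (235 against 65.8 CPM, 1.82) were higher too. APOE was at 957 against 265 CPM (1.85), and missed the mark only in hashtag 0252, by less than 0.01.

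Among lysosomal genes 2 of 22 were higher, CTSL at 175, 233, 84.2 and 207 CPM against 27.0, 49.8, 7.91 and 33.6 CPM (2.58) and CTSB at 684 against 258 CPM (1.40), and 12 were higher in all 4 hashtags at any size, against 10.9% of all genes. The matrix genes TIMP3, an inhibitor of matrix proteases (185 against 33.4 CPM, 2.43), and PLAUR, the urokinase receptor (1.61), were called out of 13. COL1A2, a collagen chain on the stromal list, was at 91.3 against 16.1 CPM (2.43), while the ratios of its partner COL1A1 ran from -3.18 to 2.53 over the hashtags. The summed stromal list was at 152, 127, 102 and 129 CPM in the SPP1-high and 15.9, 29.4, 24.7 and 201 CPM in the SPP1-low cells of hashtags 0252, 0253, 0254 and 0255, and its part in the COL1A2 value was not tested. The chemokine CCL3 was at 202 against 39.6 CPM (2.32). CD14 was at 215 against 72.0 CPM (1.57), VSIG4 at 72.4 against 11.3 CPM (2.58), C3AR1 at 52.5 against 18.6 CPM (1.45), and MITF, a regulator of lysosomal genes, at 32.2 against 5.45 CPM (2.36). C1QC stood at 1091 against 894 CPM.

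The largest ratios also included genes outside the lists. GLDN was at 39.3 against 1.73 CPM (3.88), EMP1 at 38.3 against 1.73 CPM (3.85) and ALDH1A2, a retinoic acid synthesizing enzyme, at 28.8 CPM (3.60, or 2.39 with 5 CPM added). CHI3L1, a secreted chitinase-like protein of activated macrophages, was at 90.2, 325, 178 and 384 CPM against 20.3, 41.4, 7.42 and 17.2 CPM (3.38).

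LTB was the leading gene on the lower side. It was at 61.9, 37.2, 117 and 99.2 CPM in SPP1-high cells and 180, 445, 945 and 1281 CPM in SPP1-low cells (-3.25). IDO1 (3.78 against 36.4 CPM, -2.97), FAM65B (-3.00), the immunoglobulin joining chain IGJ (-2.68) and the lectin CLEC4A (-1.79) were lower as well, and with 5 CPM added the ratios of FAM65B and IGJ were -1.53 and -1.47. HLA class II genes were lower by less. 0 of 11 passed the 2-fold mark, but 9 were lower in all 4 hashtags at any size, against 16.4% of all genes, with a median of -0.75. HLA-DRA was at 1303, 744, 1321 and 897 CPM in SPP1-high and 1728, 1373, 1835 and 1937 CPM in SPP1-low cells (-0.70).

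The summed monocyte list was at 868, 705, 517 and 211 CPM in the SPP1-high cells of hashtags 0252, 0253, 0254 and 0255 and at 887, 1984, 158 and 397 CPM in the SPP1-low cells, so that hashtag 0254 went against the others. The dendritic list was at 188 and 291 CPM. The erythroid list was at 291 and 42.3 CPM, led by HBG1 at 135 and 23.9 CPM, while at least 10 hemoglobin UMIs were held by 2 of 135 and 2 of 510 cells. In hashtag 0253 it reached 681 CPM in the SPP1-high cells, against 28.3, 93.9 and 12.9 CPM in hashtags 0252, 0254 and 0255, and its part in the result was not tested. Without the cells rich in MPO and PRTN3, 85 genes were higher and 25 lower. Without hashtag 0252 the counts were 113 and 39, and without hashtag 0253 or 0254 the genes lower were 45 or 40, since a gene then had to pass in 3 hashtags only.

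Levels are also given over 4 bins of SPP1 UMIs, for genes picked with their values known. In the 378, 132, 54 and 81 C1Q cells with 0, 1 to 9, 10 to 49 and 50 or more SPP1 UMIs, TREM2 was at 85.4, 137, 240 and 509 CPM. APOE was at 227, 361, 630 and 1154 CPM, CTSL at 18.1, 56.4, 70.4 and 244 CPM, and LPL at 5.21 and 72.0 CPM in the lowest and highest bins. LTB declined in the same order from 804 through 354 and 94.3 to 55.3 CPM, and HLA-DRA was at 1828, 1410, 1357 and 865 CPM. CD14 was at 59.8, 103, 228 and 208 CPM, highest in the bin of 10 to 49 SPP1 UMIs. The bins share the SPP1 counts that define the split and are not a separate measurement of it.

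At least 10 SPP1 UMIs were also held by 137 kept cells that were not C1Q cells, and this comparison was added after the data had been examined. These SPP1-high cells with fewer than 10 C1Q UMIs numbered 19, 83, 16 and 19 in hashtags 0252, 0253, 0254 and 0255. Their median was 48 SPP1 UMIs at a depth of 16349, against 72 at 13830 in SPP1-high C1Q cells. Of the 137, 56 (40.9%) held 3 to 9 C1Q UMIs. Of all kept SPP1 UMIs, 49.1% were in SPP1-high C1Q cells and 45.6% in these cells. Against them, 61 of 8237 genes (0.741%) were higher in SPP1-high C1Q cells and 14 (0.17%) were lower, with a median log2 ratio of -0.06. Without hashtag 0253, which held most of the comparison cells, the counts were 103 and 51. They were 91 and 33 without hashtag 0252, 97 and 33 without 0254, and 103 and 41 without 0255.

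Macrophage surface and HLA class II genes were higher in part in the SPP1-high C1Q cells. Of 20 macrophage surface genes 8 were higher, of 11 HLA class II genes 7, of 17 Fc receptor and innate sensing genes 4, and of 18 lipid genes 0. Among members at 10 CPM or more in both groups the counts were 5 of 12, 6 of 9, 2 of 12 and 0 of 14, against 0.417% of the 7202 such genes. CD14 was at 191, 253, 137 and 315 CPM against 17.5, 7.52, 18.3 and 9.87 CPM (4.25). CD163 had a level of 12.3 CPM, and 1 UMI was found in the comparison cells (0.43 CPM, exact 95% interval 0.01 to 2.40). HLA-DRA was at 1050 against 316 CPM (1.73), FCGR3A at 35.0 against 4.73 CPM (2.65) and SLCO2B1 at 62.4 against 10.3 CPM (2.49). While 0 of the 18 lipid genes passed the 2-fold mark, 9 were higher and 1 lower in all 4 hashtags at any size, against 11.4% and 13.9% of all genes, with a median of 0.62. The summed lipid list was at 5604 against 4864 CPM, and in hashtag 0252 at 4126 against 1570 CPM. LPL was at 63.4 against 67.5 CPM, FABP5 at 2277 against 2482 CPM and CD9 at 235 against 233 CPM. TREM2 was at 408 against 269 CPM (0.60), between 0.02 and 1.89 in the hashtags. FABP4, a fatty acid carrier of adipocytes and macrophages, was at 58.6 against 496 CPM (-3.06) and was lower in all 4 hashtags.

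Among the 14 genes that were lower, TAGLN, an actin-binding protein of smooth muscle, was at 40.7, 4.96, 9.79 and 4.31 CPM in SPP1-high C1Q cells and 189, 143, 250 and 13.2 CPM in the comparison cells (-3.13). The matrix protein SPARC (12.3 against 51.2 CPM, -1.97), CALD1 (20.3 against 75.3 CPM, -1.84) and TPM1 (75.7 against 257 CPM, -1.75) were lower as well. Of 5 stromal markers 0 were higher and 1 was lower, and of 12 matrix genes 0 were higher and 1 was lower. The stromal list summed to 128 against 337 CPM, and the erythroid list to 291 against 838 CPM, of which hashtag 0252 gave 4087 CPM in its 19 comparison cells, while 2 of the 137 held at least 10 hemoglobin UMIs. What part cells of other types played was not tested.

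The C1Q cells also differed between hashtags in a few genes. Among 2519 genes with at least 50 CPM in C1Q cells, the median ratio of the highest to the lowest hashtag was 1.22. The 5 largest ratios belonged to S100A8, LTB, S100A9, LYZ and RETN. S100A8 and S100A9, the subunits of calprotectin made by monocytes and neutrophils, were at 109, 238, 19.3 and 19.5 CPM (12.3-fold) and at 401, 659, 91.2 and 160 CPM (7.23-fold) in hashtags 0252, 0253, 0254 and 0255. Lysozyme, LYZ, was at 277, 573, 92.4 and 162 CPM (6.20-fold) and RETN, which encodes resistin, at 264, 312, 68.3 and 97.8 CPM (4.56-fold). LTB had the opposite pattern, at 155, 324, 778 and 1124 CPM (7.25-fold). Hashtags 0252 and 0253 were thus high in S100A8, S100A9, LYZ and RETN and low in LTB, and hashtags 0254 and 0255 the reverse. The summed neutrophil progenitor list moved with this, at 478, 459, 189 and 315 CPM in the C1Q cells and 3563, 3721, 1060 and 955 CPM in the other cells, and its part in the difference was not tested.

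These differences were not confined to C1Q cells. In the other kept cells S100A9 was at 239, 298, 88.1 and 48.1 CPM and LTB at 68.1, 91.3, 202 and 296 CPM, so that the same pairs of hashtags were high and low. C3 was highest in hashtag 0252 both in C1Q cells (354, 123, 131 and 81.2 CPM) and in the other cells (39.2, 30.8, 15.5 and 15.1 CPM). With 1 pool per hashtag, the coating, the culture and the staining cannot be told apart.

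LTB and SPP1 were also counted as cells, as a description. At least 10 LTB UMIs were held by 116 C1Q cells, which were 4.19%, 10.6%, 29.2% and 35.3% of the C1Q cells of hashtags 0252, 0253, 0254 and 0255. Among them were 3 of the 135 SPP1-high cells (2.22%, 0.46 to 6.36) and 22.2% (18.6 to 26.0) of the SPP1-low cells. LTB was picked as the leading gene lower in SPP1-high cells, so this count restates that call and is no separate evidence. It is also pooled over hashtags whose shares of LTB and SPP1 differ. At least 10 S100A9 UMIs were held by 73 C1Q cells, which were 14.1%, 21.2%, 2.38% and 5.17% of the hashtags. Of these 73, 42 also held at least 10 LYZ UMIs and 2 at least 10 LTB UMIs. S100A9 differed between the SPP1 groups in opposite directions, at 347, 420, 204 and 86.3 CPM in the SPP1-high and 415, 760, 62.8 and 171 CPM in the SPP1-low cells of hashtags 0252, 0253, 0254 and 0255. Of the 39 cells that held at least 10 TREM2 UMIs, 31 were SPP1-high. In all, 301 C1Q cells (46.7%) held at least 10 UMIs of SPP1, LTB or S100A9 and 344 (53.3%) of none of the 3, a threshold and a choice of genes made after the values had been seen.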

How the data were processed

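UMI counts were made by the authors with Cell Ranger 6.0.1 on hg19, as their processing notes name them. They deposited these raw counts, for 10836 barcodes by 32738 genes and 4 hashtags, and a hashtag call per barcode. Of these, 8488 were called for 1 hashtag, 1339 were called doublets and 1009 negatives; the calls were used as deposited. Cells of 1 hashtag with at most 36000 gene UMIs, 6000 genes and 18% of UMIs on mitochondrial genes were kept (7550). No further doublets were removed. Counts were summed per group and hashtag and scaled to 1000000 gene UMIs (CPM). Differences used a pseudocount of 1 CPM and genes with at least 10 CPM, and shares have exact Clopper-Pearson and levels exact Poisson intervals. In text, the 10 largest ratios in each direction, genes of 26 lists (323 of 325 genes had a row) and the 5 genes that varied most between hashtags were named. Members, lists and splits were chosen with earlier results of these data known. The procedure was tested on simulated data. Python 3.11.15, numpy 2.4.6, scipy 1.17.1, pandas 2.3.3 and scanpy 1.11.5 were used.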

Additional observations from a re-analysis of the deposited data

Results flagged for a closer look

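C1Q transcripts were also present in barcodes that the comparisons did not use. Among 834 barcodes called doublets within the same limits, 107 (12.8%, exact 95% interval 10.6 to 15.3) held at least 10 C1Q UMIs, with a median depth of 23028 UMIs in these. The share was 8.54% in the kept cells and 0.494% (4 of 809) in barcodes called negative. Median depth was 13496 UMIs in the kept C1Q cells, and the part of depth in the difference was not tested.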

How the results depend on the processing

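The share of C1Q cells moved with the threshold by construction, to 11.2% at 5 UMIs, 5.13% at 20 UMIs, 9.39% at 10 UMIs per 20000 UMIs of the cell and 9.26% at 3 UMIs after thinning to 5000 UMIs. With a mitochondrial limit of 10% it was 6.79% (50 of 736 cells), and the ratio of the highest to the lowest hashtag was 3.73 instead of 1.23. The SPP1-high share was 24.8% with the split at 5 UMIs and 17.7% at 20 UMIs. Against all other cells, the mitochondrial limit left 239 genes higher, no filter on low genes gave 450 lower, and a pseudocount of 5 CPM gave 190 lower. Against HLA class II cells that pseudocount gave 93 higher and 9 lower. For SPP1-high against SPP1-low cells it gave 46 higher and 9 lower; there, 20 C1Q UMIs gave 13 lower, the split at 20 SPP1 UMIs 31 lower, no filter 54 lower, and a minimum of 50 CPM, chosen after seeing the data, 40 higher and 6 lower. Of the 20 genes called lower, 3 were among the 13. The mitochondrial limit could not be run there, since hashtag 0255 then had no SPP1-high cells. Allowing at most 2 C1Q UMIs in the SPP1-high comparison cells, also chosen after seeing the data, gave 108 genes higher. Leaving out 1 hashtag at a time gave C1Q shares of 8.36% to 8.85% and SPP1-high shares of 17.9% to 22.7%. The counts were then 527 to 562 higher and 314 to 350 lower against all other cells, 153 to 194 and 14 to 19 against HLA class II cells, 97 to 113 and 28 to 45 for SPP1-high against SPP1-low cells, and 91 to 103 and 33 to 51 against SPP1-high cells with fewer than 10 C1Q UMIs. Fewer hashtags then had to pass, so these counts had to grow or stay, apart from genes moved over the filter. Size factors by the median of ratios shifted the median gene by 0.11 on the log2 scale against all other cells. Of 420 alternative values for 60 named ratios, 385 moved by less than the spread between hashtags, 35 moved by more, 31 of them with the pseudocount of 5 CPM, and 0 reversed. Scrublet marked 17 C1Q cells (2.64%) and 1.03% of kept cells. Ratios were taken within each hashtag, and no paired fit was made. The hashtag map and the lack of replicates limit every comparison between hashtags.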
